A study of Mus musculus with 4 samples.

Results

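The genes described here encode the antigen-presenting machinery of major histocompatibility complex (MHC) class II, in CD8 T cells, with and without surface JAML, that had infiltrated hepatocellular carcinoma in mice. JAML is the junctional adhesion molecule-like receptor. The set holds 6 of the 14934 genes in the deposited count table, taken by symbol: the invariant chain Cd74, the chains H2-Aa, H2-Ab1 and H2-Eb1, the peptide editor chain H2-DMa and the transactivator Ciita. The JAML-positive group and the JAML-negative group each had 2 RNA-seq libraries, with replicate letters A and B, from wild-type cells isolated by flow cytometry. Tumour model, age and treatment are not given in the labels, whose titles call the JAML-negative group CON. Total RNA went into a SMARTER mRNA-Seq library kit. What the letters A and B stand for (animals, pools or sorts) is not stated, so p-values reflect how these 4 libraries scatter, and that scatter may be purely technical.

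Class II molecules are heterodimers of an alpha and a beta chain that display peptides from endosomes to CD4 T cells. The invariant chain blocks the peptide groove and steers new dimers to endosomes, where proteases trim it to a short fragment that the editor H2-DM exchanges for peptide and that H2-O, an inhibitor of H2-DM, helps to retain. Transcription of these genes depends on CIITA, which binds no DNA itself but is recruited by the RFX, CREB and NF-Y complexes seated on the X and Y boxes of class II promoters. Dendritic cells, B cells and macrophages are the classical class II-positive cells, and mouse T cells are not counted among them.

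Depth was 27717149 and 30569728 counts in the JAML-positive libraries, and 27819178 and 27530187 counts in the JAML-negative libraries, here and throughout in the order replicate A, replicate B. A total of 3 counts in a library, used as the floor of detection, equals 0.0959 to 0.113 CPM (counts scaled to a library of 1e+06) and covers counting error only. JAML-positive replicate A stood apart: the ribosomal protein share was 11.6%, with 7.16% to 7.98% in the other libraries, and the Malat1 share 0.0703%, with 0.120% to 0.146% in the others. Within both groups many genes were present in 1 library and nearly absent from its partner, with at most 3 counts in one and at least 100 in the other for 1227 genes in the JAML-positive pair and 1693 genes in the JAML-negative pair. Jaml itself averaged 142 ± 6.53 CPM in JAML-positive and 124 ± 9.89 CPM in JAML-negative libraries (SD, n = 2 each), with a log2 fold change of 0.20 (edgeR adjusted p = 0.881). The CD8 co-receptor gene Cd8a was high in all 4 libraries, at 1048 ± 5.48 CPM in JAML-positive and 1069 ± 63.3 CPM in JAML-negative libraries. The 9 T cell markers in the table summed to 4812 and 4260 CPM in JAML-positive libraries, and to 4463 and 4490 CPM in JAML-negative libraries.

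A total of 5 class II promoters of the mouse MHC on chromosome 17 hold the X and Y cores in the classical arrangement, and H2-Aa and H2-Eb1 are the members among them. All 5 are shown because the complexes that recruit CIITA sit on boxes of this kind. The sequences are RefSeq reference on GRCm38.p6, given 5′ to 3′ on the gene's strand, with capitals marking the X-box core GCAAC and the Y-box core GATTGG that follows it. H2-Aa lies on the minus strand (chr17:34287837-34287934), the others on the plus strand: H2-Eb1 at chr17:34305746-34305842, H2-Eb2 at chr17:34325513-34325609, H2-Oa at chr17:34092273-34092370 and H2-Ob at chr17:34238788-34238882.
H2-Aa: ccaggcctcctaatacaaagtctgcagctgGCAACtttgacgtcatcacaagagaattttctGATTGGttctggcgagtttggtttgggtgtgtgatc
H2-Eb1: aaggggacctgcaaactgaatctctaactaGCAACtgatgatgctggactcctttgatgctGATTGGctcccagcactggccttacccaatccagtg
H2-Eb2: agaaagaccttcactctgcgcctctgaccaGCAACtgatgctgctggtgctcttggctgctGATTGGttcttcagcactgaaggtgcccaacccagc
H2-Oa: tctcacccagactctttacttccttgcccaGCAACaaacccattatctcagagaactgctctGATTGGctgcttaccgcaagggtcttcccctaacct
H2-Ob: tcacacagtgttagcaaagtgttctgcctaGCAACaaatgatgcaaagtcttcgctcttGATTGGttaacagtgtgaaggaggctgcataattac

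The cores were searched in windows from 250 bases before to 50 bases after each start, with GCAAC upstream of GATTGG by 15 to 35 bases. The search was set up after the sequences had been read. Single cores were sought on both strands, and so was the pair across the genome. In the class II genes the pair was sought on the gene's strand only. The letters GCAAC and GATTGG do not overlap each other. The pair was present in 120 of 32851 promoter windows of the mouse genome (0.365%). GCAAC alone was present in 35.2% of the windows and GATTGG alone in 16.1%. Of the 8 class II genes with a window, 5 held the pair, with 24 to 27 bases between the cores, and 8 held GATTGG. Only exact letters were counted, so a gene without the pair may still hold an X box with a changed letter. Among the members with a window, H2-Aa and H2-Eb1 held the pair and H2-DMa did not. The H2-DMa windows were chr17:34122582-34122881 and chr17:34125268-34125567, and only the latter held GATTGG. The rest of this gene, which runs to base 34139101, was not searched, so a pair elsewhere in it would have been missed. The promoters of Cd74, H2-Ab1 and Ciita were not analysed here. The Y core began 49 bases before the start in H2-Aa and 60 bases before it in H2-Eb1. These matches describe letters in the reference and say nothing of binding in these cells.

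The invariant chain gene and the classical chains were several-fold higher in both JAML-positive libraries than in both JAML-negative libraries. H2-DMa and Ciita overlapped between the groups. Summed over the 6 genes the level was 411 and 228 CPM in JAML-positive libraries, and 111 and 79.2 CPM in JAML-negative libraries. The means were 319 ± 129 CPM in JAML-positive and 95.1 ± 22.5 CPM in JAML-negative libraries (SD, n = 2 each), a log2 ratio of 1.75. With 2 libraries against 2 an exact two-sided permutation test cannot go below p = 0.333, so no test of this sum was made. In sorted bulk RNA a larger share of class II-expressing cells and more class II RNA per cell cannot be told apart.

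**Figure D1:**
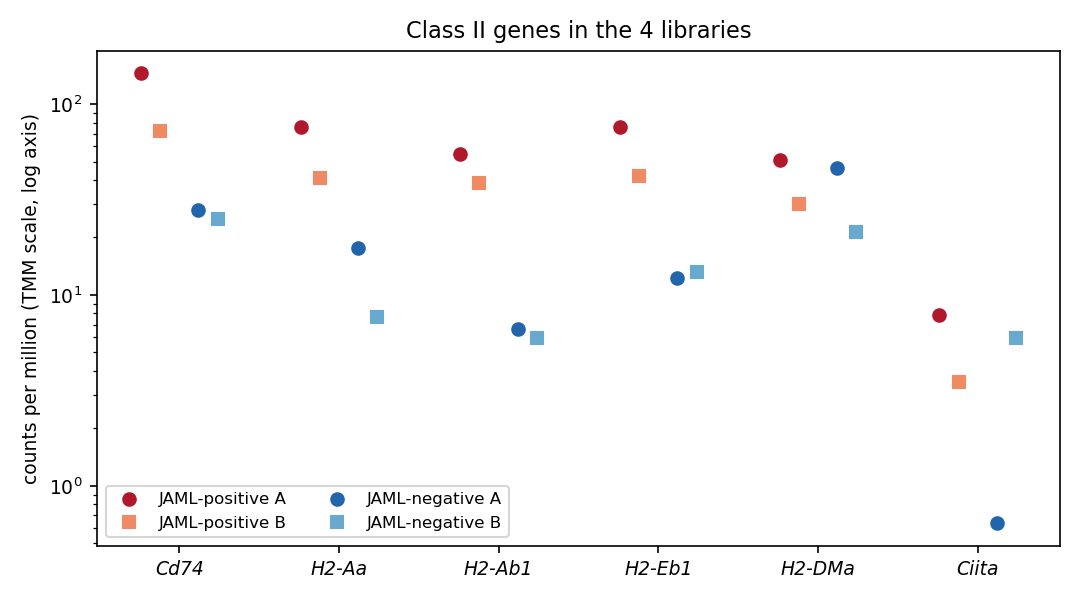
CPM on the TMM scale (log axis) for the 6 genes, with 1 point per library, JAML-positive libraries left of JAML-negative ones and no error bars. Cd74, H2-Aa, H2-Ab1 and H2-Eb1 are higher in both JAML-positive libraries, while the points of H2-DMa and Ciita interleave.

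Cd74 (chr18:60803849-60812652, GRCm38.p6), the chaperone of newly made class II dimers, had 3836 and 2274 counts in JAML-positive libraries, and 783 and 692 counts in JAML-negative libraries. The levels were 145 and 72.7 CPM in the JAML-positive libraries, against 27.7 and 25.1 CPM in the JAML-negative libraries. Both JAML-positive values lay above both JAML-negative values, and the JAML-positive pair was the more spread, with means of 109 ± 51.2 CPM in JAML-positive and 26.4 ± 1.83 CPM in JAML-negative libraries. The log2 fold change was 2.03 (SE 0.45, lower end of the 95% interval 1.05), with an edgeR quasi-likelihood p of 0.000669 before and 0.609 after adjustment over all genes. It did not pass the threshold of 0.05.

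H2-Ab1 (chr17:34263227-34269418), the beta chain of the I-A molecule, had 1455 and 1201 counts in JAML-positive libraries, and 187 and 164 counts in JAML-negative libraries. Of the 6 genes it had the highest fold change, though not the widest difference in CPM, at 46.7 ± 11.8 CPM in JAML-positive and 6.29 ± 0.468 CPM in JAML-negative libraries. Its log2 fold change was 2.88 (SE 0.66, 95% interval 1.44 to 4.32, edgeR adjusted p = 0.609). Its partner H2-Aa (chr17:34282744-34287823), the I-A alpha chain, had 2011 and 1281 counts in JAML-positive libraries, and 496 and 212 counts in JAML-negative libraries. The groups did not overlap, although the JAML-negative pair differed within itself by more than for the other classical chains. H2-Aa averaged 58.5 ± 24.8 CPM in JAML-positive and 12.6 ± 6.97 CPM in JAML-negative libraries, a log2 fold change of 2.19 (SE 0.59, 95% interval 0.89 to 3.48, edgeR adjusted p = 0.609).

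H2-Eb1 (chr17:34305867-34316674), the beta chain of I-E, had 2008 and 1311 counts in JAML-positive libraries, and 346 and 361 counts in JAML-negative libraries. The JAML-negative libraries were nearly level with each other, and both lay well below the JAML-positive ones. The means were 58.9 ± 24.1 CPM in JAML-positive and 12.7 ± 0.611 CPM in JAML-negative libraries, a log2 fold change of 2.20 (SE 0.57, 95% interval 0.97 to 3.43, edgeR adjusted p = 0.609). H2-Ea, the alpha chain of I-E, was not analysed here.

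H2-DMa (chr17:34119693-34139101), the alpha chain of the peptide editor, had 1339 and 941 counts in JAML-positive libraries, and 1305 and 588 counts in JAML-negative libraries. Replicate A was the higher library of both groups and the groups overlapped. The means were 40.4 ± 14.5 CPM in JAML-positive and 33.8 ± 17.6 CPM in JAML-negative libraries, a log2 fold change of 0.23 (SE 0.52, 95% interval -0.91 to 1.37, edgeR adjusted p = 0.938). In the annotation, exons of H2-DMa overlap exons of Brd2 on the opposite strand over 360 bases, 10.4% of its exonic bases. Brd2 is a much more abundant transcript, with 12500 and 18788 counts in JAML-positive libraries, and 19384 and 18170 counts in JAML-negative libraries. Whether counting used strand is not given in the sources used here, so reads from the shared bases cannot be told apart.

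Ciita (chr16:10480014-10531064), the transactivator of the other genes, was the least abundant of the set. Its counts were 207 and 109 in JAML-positive libraries, and 18 and 164 in JAML-negative libraries. The low value was JAML-negative replicate A, while JAML-negative replicate B lay between the 2 JAML-positive libraries. Levels were 7.83 and 3.49 CPM in JAML-positive libraries and 0.637 and 5.96 CPM in JAML-negative libraries, a log2 fold change of 0.75 (SE 1.36, 95% interval -2.18 to 3.68, edgeR adjusted p = 0.917). The interval spans a large difference in either direction, so the level of Ciita was not resolved at 2 libraries per group. Exons of Ciita overlap those of Dexi on the opposite strand over 329 bases, 3.45% of its exonic bases.

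Across the whole table edgeR placed 0% of the 11563 tested genes past an adjusted p of 0.05 as higher in JAML-positive cells, and the smallest adjusted p of any gene was 0.227. Before adjustment, 499 genes (4.32%) were higher at p under 0.05 and 386 lower, and 4 of the 6 members were among the higher ones, with ranks by p of 9, 11, 22 and 31 for Cd74, H2-Ab1, H2-Eb1 and H2-Aa. The groups did not overlap, with the JAML-positive pair on top, for 4 of the 6 members and for 20.3% of the tested genes. A log2 fold change of at least 1 was reached by the same 4 members and by 11.9% of the tested genes. The median log2 fold change was 2.11 for the 6 members and 0.01 for all tested genes. Limma-voom called 0 genes in either direction. DESeq2, a different count model, called 487 of the 12328 genes it adjusted as higher (3.95%), 348 as lower, and 4 of the 6 members as higher. Its adjusted p was 3.5e-09 for H2-Ab1, 2.66e-05 for Cd74, 3.43e-05 for H2-Eb1 and 0.0029 for H2-Aa, against 0.905 for H2-DMa and 0.896 for Ciita. Whether the 4 genes are called thus depends on the model, while their direction was the same in edgeR, limma-voom and DESeq2.

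JAML-positive replicate A, the library with the highest share of ribosomal protein counts, was also the JAML-positive library with the higher level of each of the 6 genes. Without it the edgeR log2 fold change was 1.46 for Cd74, 1.69 for H2-Aa, 2.61 for H2-Ab1 and 1.73 for H2-Eb1, with an adjusted p of 0.881 for each. Left out one at a time, no library turned the sign of these 4 genes, whose log2 fold changes stayed between 1.46 and 3.12. H2-DMa went to -0.17 without JAML-positive replicate A and to -0.20 without JAML-negative replicate B. Ciita went to 0.10 without JAML-positive replicate A, to -0.12 without JAML-negative replicate A and to 3.11 without JAML-negative replicate B. The part of the ribosomal share in the class II levels was not tested.

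**Figure D2:**
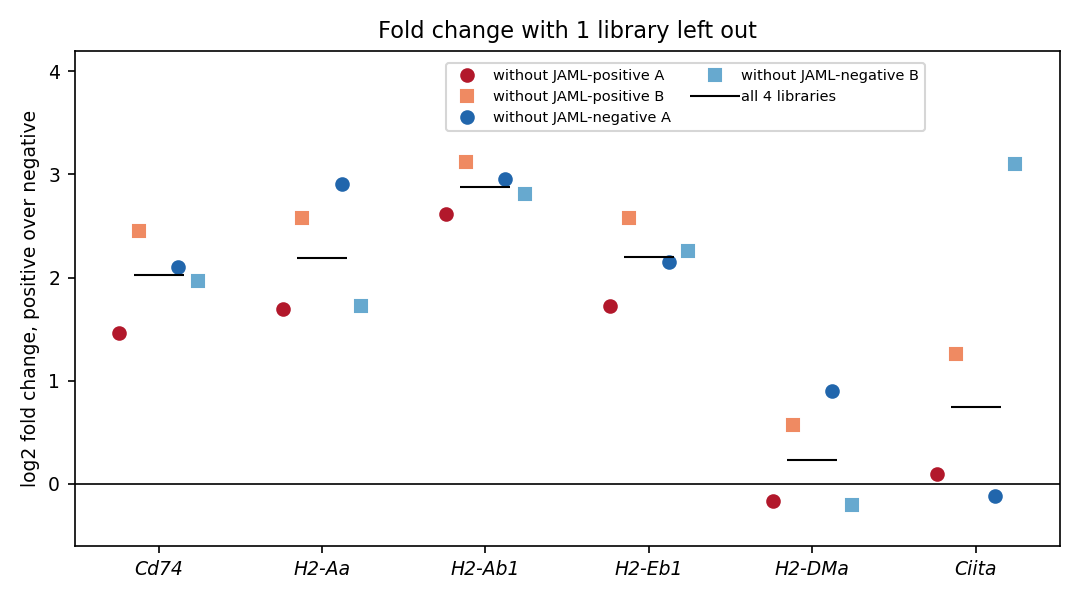
Log2 fold change of JAML-positive over JAML-negative libraries (edgeR) for each gene with 1 library left out (points, colour and shape naming that library) and with all 4 libraries (horizontal ticks). The invariant chain and the classical chains stay between 1.46 and 3.12, while H2-DMa and Ciita fall on both sides of 0.

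To set the genes against each other, CPM was divided by the length of the longest coding transcript in kilobases. In JAML-positive libraries the order was Cd74 with 77.2 ± 36.3 CPM per kilobase, H2-Aa with 51.9 ± 22.0, H2-Ab1 with 38.5 ± 9.70, H2-Eb1 with 35.3 ± 14.4, H2-DMa with 20.1 ± 7.25 and Ciita with 0.942 ± 0.511 (SD, n = 2). Across libraries, neighbours in this order overlapped down to H2-DMa, and Ciita lay far below all of them. Within each JAML-positive library the order was the same, except that H2-Ab1 and H2-Eb1 were nearly level in replicate A (45.4 and 45.5). In JAML-negative libraries Cd74 had 18.7 ± 1.29 CPM per kilobase, H2-DMa 16.8 ± 8.76, H2-Aa 11.2 ± 6.18, H2-Eb1 7.60 ± 0.366, H2-Ab1 5.19 ± 0.386 and Ciita 0.549 ± 0.626. H2-DMa thus ranked above the classical chains there, also within each library, with 23 and 10.7 against 15.6 and 6.83 for H2-Aa. The H2-DMa values may hold reads from the bases shared with Brd2, which cannot be told apart. Across libraries H2-DMa and H2-Aa overlapped, while H2-DMa and H2-Eb1 did not. Per length, H2-DMa amounted to 0.160 and 0.161 of the summed H2-Aa, H2-Ab1 and H2-Eb1 in JAML-positive libraries, and to 0.812 and 0.544 in JAML-negative libraries. Cd74 amounted to 0.650 and 0.554 of the same sum in JAML-positive libraries and to 0.693 and 0.910 in JAML-negative libraries. The difference between genes in their fold change was not tested.

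Among the class II chains outside the set, 5 were in the table and tested, 3 with a positive and 2 with a negative log2 fold change, and 0 passed edgeR's test. The beta chains of the peptide editor were close to absent from JAML-negative libraries. H2-DMb1 had 211 and 221 counts in JAML-positive libraries, and 8 and 15 counts in JAML-negative libraries. H2-DMb2 had 321 and 87 counts in JAML-positive libraries, and 3 and 8 counts in JAML-negative libraries. For both genes all JAML-positive values exceeded all JAML-negative values. The log2 fold changes were 4.17 (SE 1.89) and 5.14 (SE 2.45), with an edgeR adjusted p of 0.609 and a DESeq2 adjusted p of 0.026 and 0.0209. The 2 genes share 369 identical stretches of 50 bases, 27.2% of those in H2-DMb1, so reads may have been divided between them and their sum is the safer measure. Summed, they had 532 and 308 counts in JAML-positive libraries, and 11 and 23 counts in JAML-negative libraries. Per length, H2-DMa exceeded the summed beta chains by 1.82-fold and 2.17-fold in JAML-positive libraries, and by 84.3-fold and 18.2-fold in JAML-negative libraries. The JAML-negative ratios rest on only 11 and 23 beta chain counts, and H2-DMa may hold reads from bases shared with Brd2.

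**Figure D3:**
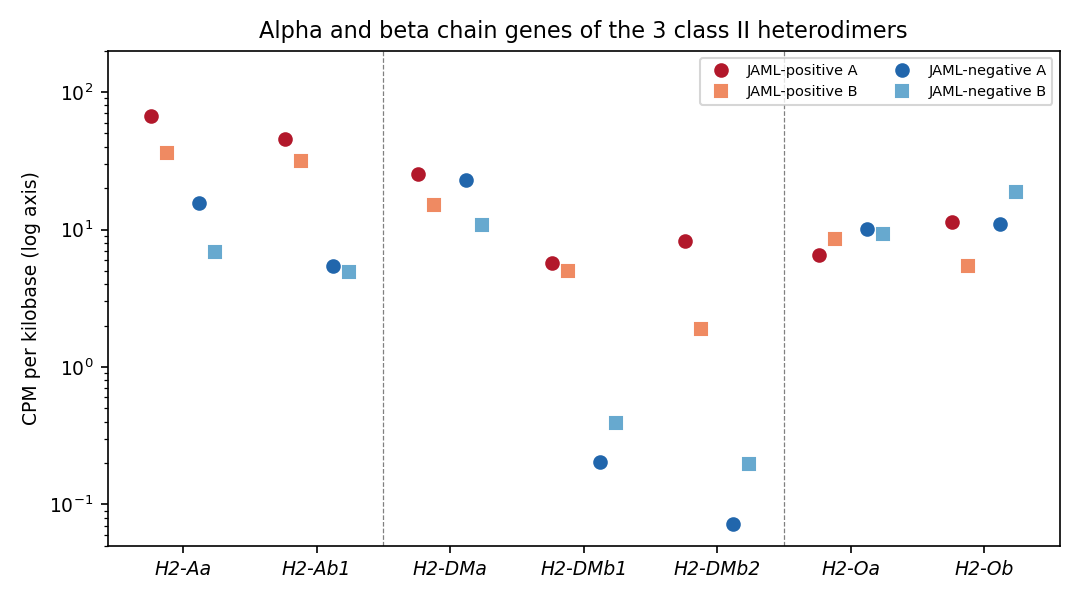
Levels per transcript length (CPM per kilobase, log axis) of the alpha and beta chain genes of I-A, H2-DM and H2-O, with 1 point per library and JAML-positive libraries left of JAML-negative ones. The H2-DM beta chain genes lie below 0.5 in both JAML-negative libraries while H2-DMa is at 10.7 or more in all 4 libraries.

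The chains of H2-O, the inhibitor of the editor that B cells and some dendritic cells express, had negative log2 fold changes. H2-Oa had 187 and 288 counts in JAML-positive libraries, and 312 and 278 counts in JAML-negative libraries. H2-Ob had 797 and 453 counts in JAML-positive libraries, and 821 and 1382 counts in JAML-negative libraries. In CPM both JAML-positive values of H2-Oa lay below both JAML-negative values, while the groups of H2-Ob overlapped. The log2 fold changes were -0.36 (SE 0.91) for H2-Oa and -0.86 (SE 0.56) for H2-Ob, with edgeR adjusted p of 0.948 and 0.709. Exons of H2-Oa overlap the antisense transcript BC051537 over 22.8% of their bases, and these reads cannot be told apart. H2-Eb2, a second beta chain gene of the E region named here after its values were seen, had 117 and 94 counts in JAML-positive libraries, and 0 and 120 counts in JAML-negative libraries. JAML-negative replicate B thus lay at the level of the JAML-positive libraries.

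The factors that sit on the X and Y boxes were expressed in all 4 libraries. Of 7 tested subunits of RFX, NF-Y and CREB, 6 had a positive and 1 a negative log2 fold change, 0 passed edgeR's test and 0 were called by DESeq2. The most abundant were Creb1, at 178 ± 5.21 CPM in JAML-positive and 166 ± 3.67 CPM in JAML-negative libraries, and the NF-Y subunit genes Nfya, Nfyb and Nfyc, with log2 fold changes of 0.29, 0.58 and 0.26. The RFX subunit genes, named here after their values were seen, were at -0.75 for Rfx5, 0.91 for Rfxank and 0.94 for Rfxap. The median over the list was 0.29, against 2.11 over the 6 class II genes and 0.01 over all tested genes.

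**Figure D4:**
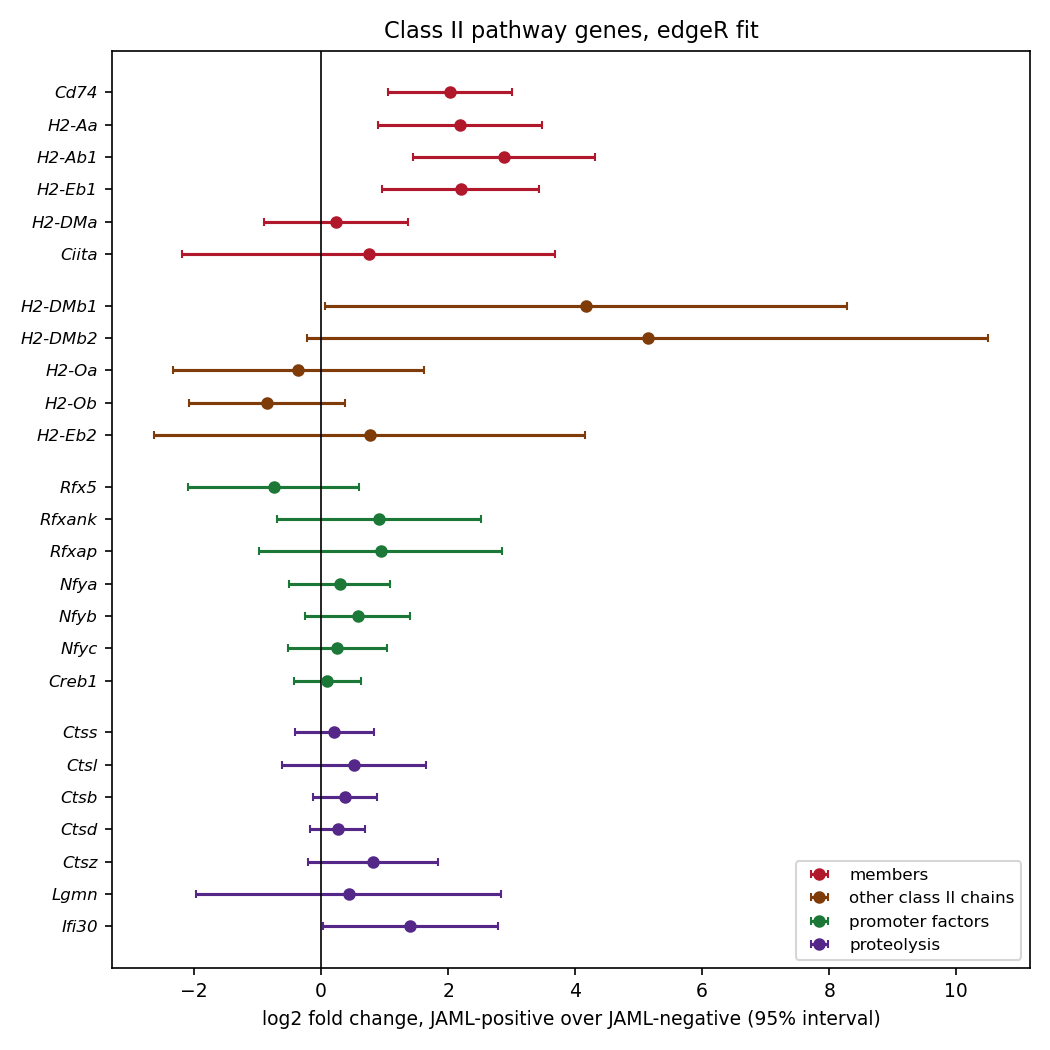
Log2 fold change of JAML-positive over JAML-negative libraries with its 95% interval from edgeR, for the 6 genes, the other class II chains, the promoter factors and the endosomal proteolysis genes. Intervals of the invariant chain, the classical chains, H2-DMb1 and Ifi30 lie above 0, while those of all promoter factors span 0. The intervals are not adjusted for the number of genes tested, and no gene shown passed edgeR's adjusted threshold.

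Endosomal proteases and the thiol reductase that prepare antigen and trim the invariant chain had positive log2 fold changes for 7 of 7 tested genes, with a median of 0.43, and 0 passed edgeR's test. Ctsd, encoding the aspartic protease cathepsin D, averaged 715 ± 66.0 CPM in JAML-positive and 596 ± 5.35 CPM in JAML-negative libraries. Ctss, encoding cathepsin S, which makes the late cuts in the invariant chain, averaged 119 ± 13.9 CPM in JAML-positive and 103 ± 9.93 CPM in JAML-negative libraries, a log2 fold change of 0.21. Ctsb was at 0.37 and Ctsz at 0.82. The widest difference of the list, chosen after its values were seen, was that of Ifi30, the lysosomal thiol reductase GILT, at 1.40 (SE 0.63, edgeR adjusted p = 0.609). Its counts were 851 and 1165 in JAML-positive libraries, and 548 and 188 in JAML-negative libraries.

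Genes that set the turnover of class II proteins gave 2 positive and 2 negative log2 fold changes, and 0 passed edgeR's test. Marchf1, encoding the ubiquitin ligase that removes class II from the surface of dendritic and B cells, had 118 and 77 counts in JAML-positive libraries, and 21 and 8 counts in JAML-negative libraries. These groups did not overlap, but the log2 fold change of 2.69 carried an SE of 1.87. Marchf8, a related ligase, had 147 and 131 counts in JAML-positive libraries, and 328 and 0 counts in JAML-negative libraries. Cd83, which opposes MARCH1 in dendritic cells, had 162 and 136 counts in JAML-positive libraries, and 34 and 232 counts in JAML-negative libraries. Sppl2a, encoding the intramembrane protease that clears the last invariant chain fragment, was level between groups to within its spread, with 107 ± 0.305 CPM in JAML-positive and 126 ± 30.4 CPM in JAML-negative libraries.

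Receptors and ligands of these molecules were also present. Mif, the cytokine that binds CD74 at the cell surface, averaged 95.2 ± 8.43 CPM in JAML-positive and 46.3 ± 8.22 CPM in JAML-negative libraries. This is a log2 fold change of 1.04 (SE 0.35, edgeR adjusted p = 0.609, DESeq2 adjusted p = 0.0034). Cd44, the signalling partner of CD74, averaged 253 ± 2.09 CPM in JAML-positive and 240 ± 6.94 CPM in JAML-negative libraries. Lag3, an inhibitory receptor that binds class II, had a log2 fold change of 0.80 (SE 0.38, edgeR adjusted p = 0.609), and Cd4, the class II co-receptor, had 0.33 (SE 0.27). Of the 6 tested genes of this list 4 had positive and 2 negative log2 fold changes, and 0 passed edgeR's test.

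Interferon gamma induces CIITA through its receptor and the kinases JAK1 and JAK2. Of 13 tested genes of that path and its common targets, 8 had positive and 5 negative log2 fold changes, with a median of 0.03, and 0 passed edgeR's test. Irf1 averaged 334 ± 64.0 CPM in JAML-positive and 389 ± 89.0 CPM in JAML-negative libraries. The receptor gene Ifngr1 had a log2 fold change of -0.29 and Jak1 one of -0.38 (SE 0.19), the last with a DESeq2 adjusted p of 0.0248. Nlrc5, encoding the transactivator of class I genes and named here after its values were seen, was at -0.62 (SE 0.23, edgeR adjusted p = 0.609, DESeq2 adjusted p = 0.0472). Of 6 tested genes that lie in or beside the class II region but encode no class II chain, 2 had positive and 4 negative log2 fold changes, with a median of -0.20, and 0 passed edgeR's test. The most abundant were Brd2 at -0.32, Psmb8, of the immunoproteasome, at 0.21, the tapasin gene Tapbp at -0.14 and Tap1, of the class I peptide transporter, at -0.37. Psmb9, another immunoproteasome subunit gene, named after its values were seen, had the highest value of the list, at 0.72 (SE 0.34, edgeR adjusted p = 0.609, DESeq2 adjusted p = 0.0766). It had 110 and 80.0 CPM in JAML-positive libraries, and 59.1 and 55.1 CPM in JAML-negative libraries, with no overlap between the groups. Of the 6 genes it was the only 1 higher in both JAML-positive libraries, while 3, Brd2 and Tap1 among them, lay lower in both. Over all tested genes, 20.3% lay higher in both.

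Markers of the classical class II-positive cell types were examined beside these values, since the labels describe a sorted T cell population. Of 10 plasmacytoid dendritic cell markers, 9 were in the table and tested, and 9 had positive log2 fold changes, with a median of 3.77 that was the same with Ly6d at its lower bound. Their summed level was 337 and 418 CPM in JAML-positive libraries, and 218 and 203 CPM in JAML-negative libraries. Siglech, a surface lectin of these cells named after its values were seen, had 1491 and 1527 counts in JAML-positive libraries, and 161 and 13 counts in JAML-negative libraries. Ly6d had 166 and 148 counts in JAML-positive libraries and 0 in both JAML-negative libraries, at least 51.2-fold higher against a floor of 3 counts per library. Runx2, Ccr9 and Pacsin1 were the most abundant of the list, and the first 2 are also expressed in T cells. Their log2 fold changes were 0.20, 0.79 and 0.85. The part of these cells in the class II result was not tested.

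The conventional dendritic cell list gave a summed level of 446 and 374 CPM in JAML-positive libraries, and of 413 and 386 CPM in JAML-negative libraries, with 5 positive and 1 negative of 6 tested genes. Ccr7, which T cells also express, made up most of it, with a log2 fold change of 0.20, while Itgax was at -0.82 (SE 0.31, edgeR adjusted p = 0.609). Fscn1, of mature dendritic cells, had 182 and 247 counts in JAML-positive libraries, and 0 and 1 counts in JAML-negative libraries. Of the defining markers of the cross-presenting type, named after their values were seen, Clec9a had 1 and 133 counts in JAML-positive libraries and 1 and 0 in JAML-negative libraries, and Xcr1 had 170 and 0 in JAML-positive libraries and 1 and 105 in JAML-negative libraries. Clec9a was thus high in 1 library, and Xcr1 in 1 library of each group. The part of these cells in the class II result was not tested.

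Among 12 B cell markers 11 were in the table and 5 tested, 3 with positive and 2 with negative log2 fold changes. The summed level was 42.0 and 38.7 CPM in JAML-positive libraries, and 27.8 and 39.0 CPM in JAML-negative libraries. Cd79b and Cd22 overlapped between the groups, and Ms4a1, encoding CD20, had 304 and 102 counts in JAML-positive libraries, and 1 and 0 counts in JAML-negative libraries. Fcer2a and Bank1, named after their values were seen, lay the other way. Fcer2a, encoding the low-affinity IgE receptor CD23, had 0 and 12 counts in JAML-positive libraries, and 248 and 125 counts in JAML-negative libraries. Bank1, encoding a B cell scaffold protein, had 7 and 4 counts in JAML-positive libraries, and 125 and 117 counts in JAML-negative libraries. Their log2 fold changes were -4.98 (SE 2.28) and -4.48 (SE 2.32), with an edgeR adjusted p of 0.609 and 0.614. Pax5, the factor that fixes B cell identity, had 0 counts in both JAML-positive libraries, and 1 and 0 counts in JAML-negative libraries. Blk had 0 and 154 counts and Fcmr 106 and 0 in JAML-positive libraries, and both had 0 in both JAML-negative libraries. The plasma cell list had a summed level of 218 and 207 CPM in JAML-positive libraries, and of 128 and 190 CPM in JAML-negative libraries, with 2 positive and 2 negative log2 fold changes among 4 tested genes. Its most abundant genes, Txndc5 and Xbp1, which serve the secretory pathway of many cells, were at -0.47 (SE 0.38) and -0.09 (SE 0.38). Jchain, the joining chain of antibodies that plasmacytoid dendritic cells also express, had 2605 and 1596 counts in JAML-positive libraries, and 129 and 9 counts in JAML-negative libraries, with an edgeR adjusted p of 0.238. Mzb1 had 188 and 344 counts in JAML-positive libraries and 0 in both JAML-negative libraries, at least 84.2-fold higher. Sdc1 and Derl3 had 167 and 85 counts in JAML-positive replicate A and 0 in the other 3 libraries, and Tnfrsf17 had 1 count in all, in JAML-negative replicate A. The part of B and plasma cells in the class II result was not tested.

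Macrophage and monocyte markers summed to 221 and 177 CPM in JAML-positive libraries, and to 90.7 and 96.5 CPM in JAML-negative libraries, with 9 positive and 5 negative of 14 tested genes. Mpeg1, encoding perforin-2, had 3145 and 2802 counts in JAML-positive libraries, and 212 and 382 counts in JAML-negative libraries, a log2 fold change of 3.28 (SE 0.49, edgeR adjusted p = 0.227, DESeq2 adjusted p = 3.96e-13). It is also expressed in plasmacytoid dendritic cells and B cells. Without Mpeg1 the list summed to 102 and 86.9 CPM in JAML-positive libraries, and to 83.2 and 82.6 CPM in JAML-negative libraries. The macrophage genes Lyz2 and Cd68 were level to within their spread, Lyz2 at 24.6 ± 10.2 CPM in JAML-positive and 24.9 ± 1.80 CPM in JAML-negative libraries, and Cd68 at 21.2 ± 1.36 CPM in JAML-positive and 18.9 ± 3.23 CPM in JAML-negative libraries. Named after their values were seen, Clec4f had 188 and 126 counts in JAML-positive libraries, and 24 and 15 counts in JAML-negative libraries. C1qb had 355 and 197 counts in JAML-positive libraries, and 146 and 99 counts in JAML-negative libraries. Clec4f and C1qb did not overlap between the groups, while Adgre1 and Ms4a7 lay lower in both JAML-positive libraries. C1qa and C1qc overlapped. C1qa had 85 and 225 counts in JAML-positive libraries, and 126 and 131 counts in JAML-negative libraries. For C1qc these were 205 and 57, and 124 and 124. Of the 14 tested genes, 3 lay higher in both JAML-positive libraries and 2 lower. Over all tested genes, 20.3% lay higher in both. The part of macrophages in the class II result was not tested.

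**Figure D5:**
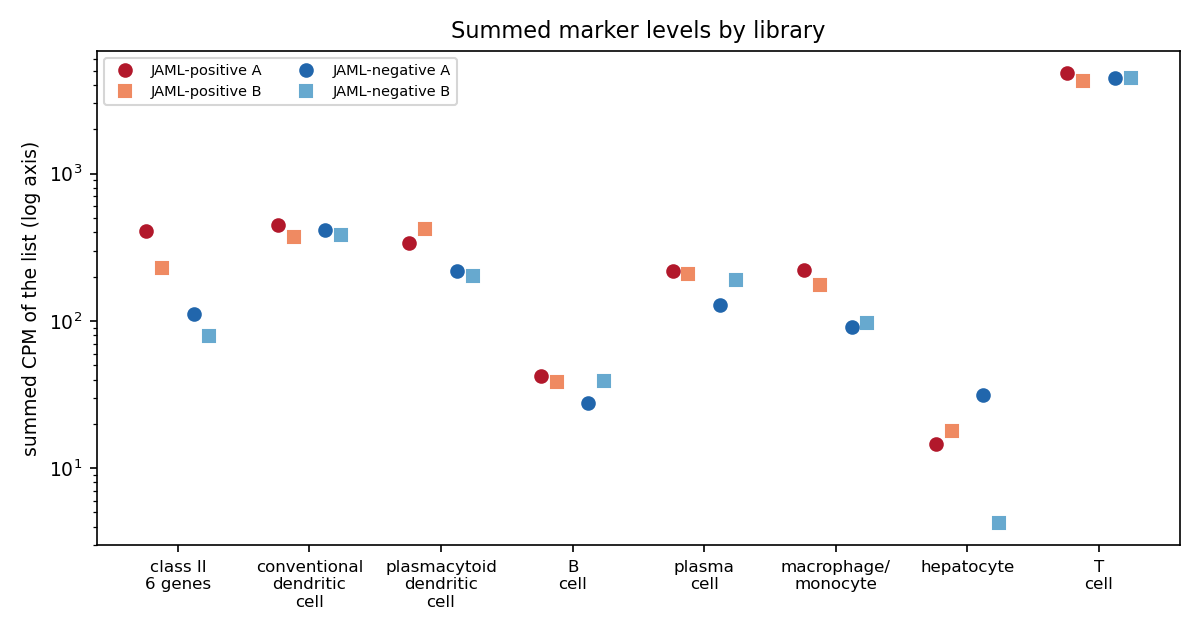
Summed CPM (log axis) of the 6 class II genes and of each list of cell type markers, with 1 point per library and JAML-positive libraries left of JAML-negative ones. The class II, plasmacytoid dendritic cell, plasma cell and macrophage sums are higher in both JAML-positive libraries. Once Mpeg1 is left out, the macrophage sum is 102 and 86.9 against 83.2 and 82.6 CPM. The T cell sum lies between 4260 and 4812 CPM in all 4.

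The genes whose profile over the 4 libraries was most like the mean of the 6 class II genes were found by Euclidean distance between centred log2 CPM profiles, among 8300 genes with at least 10 CPM on average. By this measure the nearest were Zranb3 (distance 0.12), a DNA annealing helicase, Cisd3 (0.24), a mitochondrial iron-sulphur protein, Sdcbp2 (0.32), Zfp414 (0.37) and Oaz2 (0.38), followed by Ciapin1, Troap, Mrps24, Chchd1 and Anxa4 (0.39 to 0.46). Zranb3 had 27.7 and 16.8 CPM in JAML-positive libraries, and 5.63 and 6.43 CPM in JAML-negative libraries. Among the members themselves Cd74 (0.24) and H2-Eb1 (0.33) were nearest to that mean, H2-Aa (1.01) and H2-Ab1 (1.09) farther, and H2-DMa (1.73) and Ciita (2.17) farthest. With 4 libraries such a profile has few degrees of freedom, so genes of unrelated function can come close.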

How the data were processed

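RNA was measured in 4 libraries of sorted mouse CD8 T cells. The authors deposited raw read counts per gene, whole numbers with no recorded normalization. Reads were placed on GRCm38 (mm10), per the submitters' processing notes. Which aligner, counter, strand setting and annotation were used is not given in the sources used here. From the counts, edgeR 4.0.16 in R 4.3.3 tested JAML-positive against JAML-negative libraries over all genes kept by filterByExpr (minimum count 10), with TMM scaling, robust quasi-likelihood fits, no covariate and Benjamini-Hochberg adjustment (threshold 0.05). DESeq2 1.42.0 and limma-voom (limma 3.58.1) were alternatives, beside other scalings and filters, a replicate block and leaving out each library. SE was taken as the size of the log2 fold change over the root of the F statistic. The fit was checked on simulated data. Coordinates, promoters and overlaps came from RefSeq and GENCODE on GRCm38.p6.

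The members and gene lists were chosen with earlier results of these data known. All 6 members are given in full. Of each other list up to 4 genes (3 for cell types) with the most counts over all libraries are named, plus genes at 0 in a whole group, and exceptions are marked where they occur. The likeness rule took the 10 nearest genes that were no member. Some list genes that this rule names are not reported here.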

Additional observations from a re-analysis of the deposited data

How the results depend on the processing

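The count of genes past the threshold was 0 in edgeR with TMM, RLE or total scaling, with a minimum of 5 CPM, with the replicate block and with limma-voom. It was 2 without a filter on low counts, 835 with DESeq2, and 0 to 11 when 1 library was left out. The 11 came without JAML-positive replicate B, with 10 higher and 1 lower. The earlier edgeR quasi-likelihood method, an alternative chosen after seeing the data, gave 0. The median log2 fold change of the 6 genes was 2.11, 2.09 with the replicate block, 1.58 without JAML-positive replicate A, and 1.58 to 2.51 when 1 library was left out. Deviations of same-letter libraries from their group means had a correlation of 0.018. With 2 libraries per group this value cannot tell whether the letters pair the samples. The log2 ratio of the summed level was 1.75, and 1.73 with RLE and 1.70 with total scaling. H2-DMa reversed to -0.17 without JAML-positive replicate A and to -0.20 without JAML-negative replicate B, and ranged from -0.20 to 0.90 when 1 library was left out. Ciita reversed to -0.12 without JAML-negative replicate A and ranged from -0.12 to 3.11. Why these values moved was not tested. Cd74, H2-Aa, H2-Ab1 and H2-Eb1 kept their direction in all 12 alternatives, with an adjusted p between 3.5e-09 and 0.881, and each passed the threshold in 1 of them, DESeq2. With 2 libraries per group the median SE of a log2 fold change was 0.56, which limits what edgeR can call.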

Other observations

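The CD4 and regulatory T cell list had 5 positive and 1 negative of 6 tested genes, and a summed level of 646 and 757 CPM in JAML-positive libraries, and of 548 and 488 CPM in JAML-negative libraries. Ctla4, an inhibitory receptor of activated and regulatory T cells, averaged 373 ± 23.0 CPM in JAML-positive and 253 ± 50.9 CPM in JAML-negative libraries, and Ikzf2, encoding Helios, averaged 50.2 ± 11.8 CPM in JAML-positive and 93.7 ± 15.1 CPM in JAML-negative libraries. Named after their values were seen, Il2ra, the interleukin-2 receptor alpha chain gene, was at 1.13 on the log2 scale (SE 0.40), and Cd40lg, encoding the ligand of CD40, at 4.24 (SE 1.25, edgeR adjusted p = 0.609, DESeq2 adjusted p = 0.0483). Cd40lg had 356 and 1048 counts in JAML-positive libraries, and 1 and 70 counts in JAML-negative libraries. Foxp3, also named after its values were seen, had 267 and 0 counts in JAML-positive libraries, and 30 and 128 counts in JAML-negative libraries. Its groups thus overlapped. The natural killer cell list had 3 positive and 3 negative of 6 tested genes, with a summed level of 163 and 174 CPM in JAML-positive libraries, and of 176 and 171 CPM in JAML-negative libraries. Of the hepatocyte list Alb alone was tested, with 384 and 464 counts in JAML-positive libraries, and 541 and 115 counts in JAML-negative libraries. No neutrophil marker reached the filter, the highest being Csf3r with 5 and 1 counts in JAML-positive libraries, and 15 and 3 counts in JAML-negative libraries. Endothelial and stromal markers summed to 124 and 150 CPM in JAML-positive libraries, and to 141 and 149 CPM in JAML-negative libraries, with 4 positive and 2 negative of 6 tested genes and a median log2 fold change of 1.75. Pecam1, which T cells also express, made up most of these sums, with a log2 fold change of -0.27, and Col1a1 was at 0.70 (SE 1.26). Kdr, encoding a receptor of vascular endothelial growth factor, had 189 and 212 counts in JAML-positive libraries, and 13 and 12 counts in JAML-negative libraries, a log2 fold change of 3.94 (SE 1.86, edgeR adjusted p = 0.609, DESeq2 adjusted p = 0.0388). The other genes in the median are named after their values were seen. Stab2 (131 and 6 against 5 and 14 counts) and Cdh5 (7 and 307 against 11 and 6) were each high in only 1 JAML-positive library. Lyve1 lay lower in both JAML-positive libraries, with 46 and 43 against 128 and 68 counts.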
